A study of Bos taurus with 2 samples.

Results

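The genes of the transcription machinery were examined in 2 libraries of in vitro fertilized bovine embryos, 1 from a pool of CDKN1C-siRNA-injected embryos and 1 from a pool of sham-injected embryos, which were punctured by the needle and received no siRNA. They are called the siRNA pool and the sham pool here, and paired values stand in that order. The siRNA dose, the day of collection and the number of embryos are not given in the labels for these pools. Each library averages embryos, so fewer cells of a type and less RNA per cell cannot be told apart. Members were chosen by symbol, as RNA polymerase subunits (POLR1, POLR2 and POLR3), Mediator subunits (MED), TFII factors (GTF2) and TBP-associated factors (TAF), and 91 of 21209 symbols are described. TBP itself, POLR2L, MED14, MED16, TAF6L and TAF9B were not analysed here. The values are FPKM, fragments scaled to transcript length and to the library, so levels of different genes are on a scale per length. Comparing them has a limit, since levels also moved with locus length, as given below. With 1 library in each group there is no replicate error and no p-value, and read numbers are unknown.

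RNA polymerase I makes the large ribosomal RNA precursor, RNA polymerase II makes messenger RNA, and RNA polymerase III makes transfer RNA and other short RNAs. Each is built of its own large subunits and of small subunits that it shares with the others. At a protein-coding gene, TFIID, made of TBP and its TAFs, recognizes the core promoter, TFIIA and TFIIB bind beside it, TFIIF brings the polymerase, and TFIIE recruits TFIIH, which opens the DNA. Mediator bridges these factors to activators bound elsewhere. In cattle, the embryo takes over transcription from maternal stores before the blastocyst forms.

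CDKN1C, the cell cycle inhibitor targeted by the siRNA, was 14.6 FPKM in the siRNA pool and 49.5 FPKM in sham embryos, 3.40-fold lower. The reference genes GAPDH and RPLP0 were lower by a like factor, 3.24-fold and 3.12-fold, while ACTB was 2484 against 1879 FPKM. Of 8 trophectoderm markers, all had a mean of 1 FPKM or more, and their summed level was 7570 FPKM in the siRNA pool and 17555 FPKM in sham embryos, most of it from keratin genes, with CDX2 at 1.19 and 3.76 FPKM. Of the same list, IFNT2, TFAP2A and TFAP2C were higher in the siRNA pool, at 135 against 31.1, 3.37 against 1.69 and 40.7 against 34.1 FPKM. All 6 inner cell mass markers were present as well, at 184 and 319 FPKM in sum, with POU5F1 at 56.3 and 170 FPKM. Of 8 oocyte markers 1, ZP3, had a mean of 1 FPKM or more, at 9.39 and 23.7 FPKM, 2.52-fold lower in the siRNA pool. GDF9 and ZP2 were below 0.2 FPKM in both pools. Of 8 cumulus and granulosa markers, whose summed level was 13.2 and 26.2 FPKM, CYP19A1 was below 0.1 FPKM in both pools, and PTX3 and AMH were at 0, while FSHR was 4.87 and 5.69 FPKM and INHBA 3.08 and 2.05 FPKM, and most of the gap between the sums came from HSD3B1, at 3.29 and 15.7 FPKM. The part of these markers in the differences below was not tested.

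Each gene was given a log2 difference, siRNA pool against sham pool with 1 FPKM added to both, for genes with a mean of 1 FPKM or more. This scale gives genes with low values a smaller difference than their plain ratio does, and the read depth that limits such values is unknown. Of the 91 members, 74 reached that mean. Of these, 5 were higher by 2-fold or more in the siRNA pool, where 4.92% of 7984 genes were, and 12 were lower by 2-fold or more, where 15.7% of genes were. The members' shares, 6.76% and 16.2%, were near those of all genes, and their median difference was -0.16, against -0.17 over all genes. With the median difference of all genes set to 0, 6 members were higher and 6 lower by 2-fold or more, against 7.72% and 11.05% of all genes. The siRNA pool held less FPKM in all. With the total FPKM made equal the members split into 11 higher and 2 lower. Of all genes 965 and 587 were, or 12.0% and 7.32%, and the median of all genes moved from -0.17 to 0.17. Under that scaling 14 of the 74 members changed sign. The members with the lowest means that still entered were POLR3E and GTF2H3, at 1.05 and 1.15 FPKM, and just below were TAF5 at 0.950 and POLR1A at 0.930 FPKM. The order of levels was alike in both pools, with a Spearman rho of 0.91 across the 74 members and 0.88 across all genes, as a description across genes. Longer loci had lower levels, with a rho of -0.43 between locus length and mean FPKM across the 74 members and -0.23 across all genes. The part of length in the levels of single genes was not tested.

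As deposited, the median differences of the parts of the machinery were not alike. RNA polymerase subunits had a median difference of -0.60 over 23 genes, Mediator subunits of -0.38 over 21, the general factors TFIIA to TFIIH of 0.20 over 13, and TAFs of 0.40 over 15. No polymerase or Mediator subunit was higher by 2-fold or more in the siRNA pool, apart from MED4 when the total FPKM was made equal. Of those 44 genes 10 were lower by 2-fold or more, where 15.7% of all genes were. With the total FPKM made equal, 1 of the polymerase and 0 of the Mediator subunits were, against 7.32% of all genes. Of the 28 general factors and TAFs, 5 were higher and 2 lower by 2-fold or more, where 4.92% and 15.7% of all genes were. Both other scalings raise the difference of every gene counted here, so the medians of TAFs and general factors could not fall under them. With the median difference of all genes set to 0, the medians were -0.43 for polymerases, -0.21 for Mediator and 0.57 for TAFs. With the total FPKM made equal, they were -0.22, 0.0046 and 0.70. The median of the general factors was 0.37 and 0.58 under these scalings, but -0.013 over genes with a mean of 5 FPKM or more. A loess fit on other listed loci within 1 Mb, chosen after the data were seen, gave -0.54 for polymerases and 0.17 for TAFs. It gave -0.0041 for Mediator and -0.16 for the general factors, where all genes had a median of -0.15. These groups were set out with the values of these pools known, and no test between them was run.

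**Figure D1:**
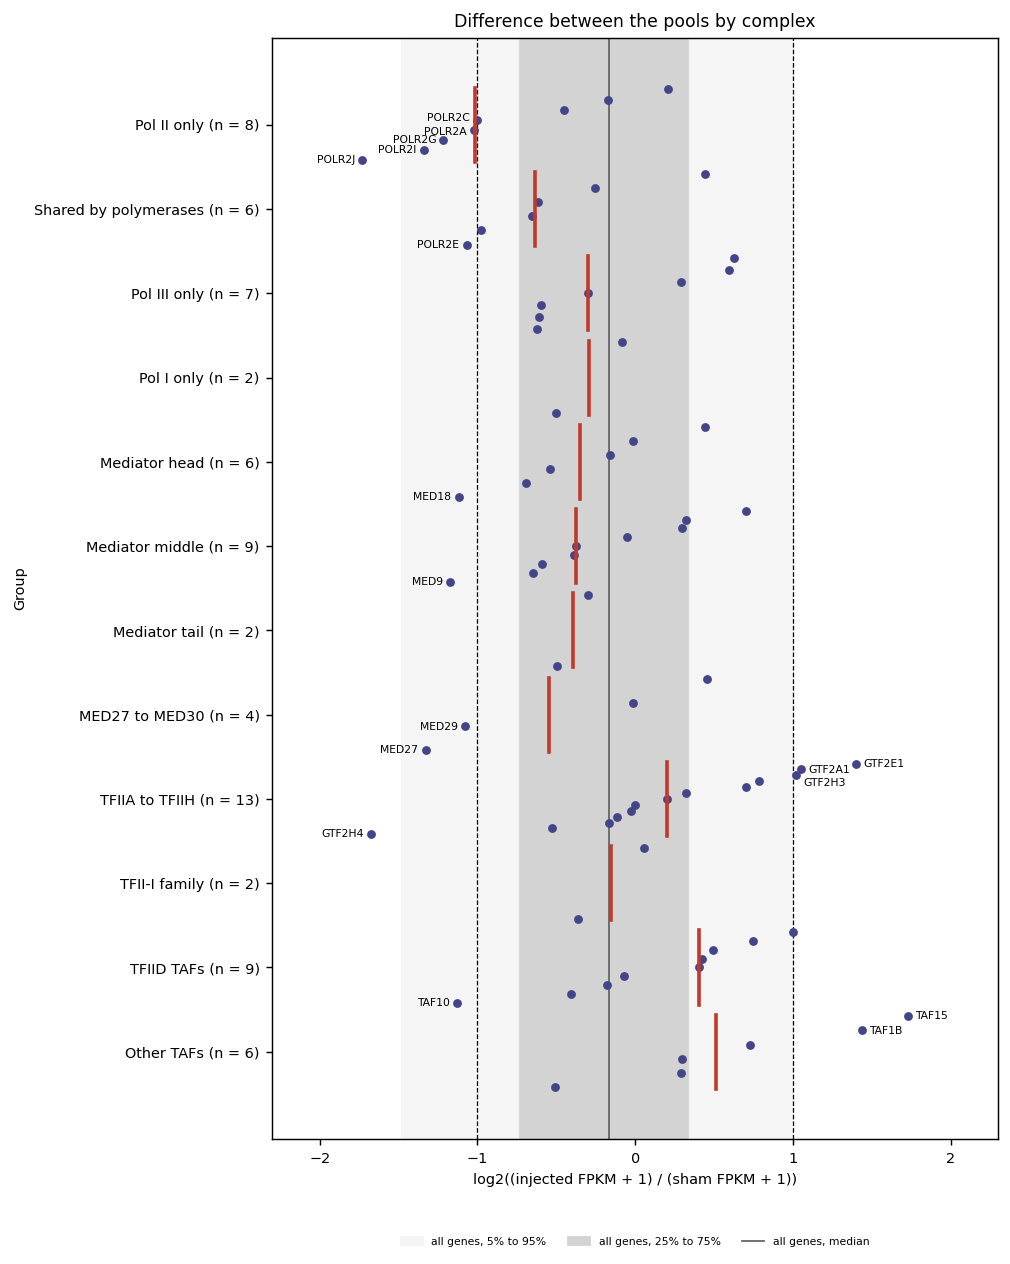
Difference between the pools, log2((injected FPKM + 1) / (sham FPKM + 1)), on the horizontal axis for the 74 members with a mean of 1 FPKM or more, 1 point per gene, by complex. Red bars are group medians, shaded bands and the grey line are the quantiles and the median of all 7984 genes, dashed lines mark 2-fold and genes past them are named; Pol II subunits lie mostly to the left and TAFs mostly to the right of the median of all genes.

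RNA polymerase II showed the lowest median of the polymerases. Of the 12 genes with POLR2 symbols, POLR2M among them, 6 were lower by 2-fold or more in the siRNA pool, where 15.7% of all genes were. None of the 12 was 2-fold higher. The lower count was 3 with the median difference of all genes set to 0, against 11.05% of all genes. It was 1 with the total FPKM made equal, against 7.32% of all genes. The median difference was -0.81. POLR2A, the largest subunit, which carries the catalytic centre and the repeated tail that is phosphorylated during transcription, was 3.40 FPKM in the siRNA pool and 7.95 FPKM in sham embryos, a log2 difference of -1.02. It lies on chromosome 19 of bosTau7, the build of the files, from 27370007 to 27409789. POLR2B, the second largest subunit and the other wall of the active site, went the other way, at 8.25 against 7.01 FPKM. So the genes of the 2 large subunits stood at a like level in the sham pool, while POLR2A was the lower of the pair in the siRNA pool. Both share their listed loci with other symbols. At that of POLR2B, IGFBP7 was 255 against 6.89 FPKM, and at that of POLR2A, AMAC1L3 and ZBTB4 had means below 1 FPKM. The part of this sharing in the contrast was not tested.

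The assembly subunit POLR2C, a partner of POLR2J in the scaffold of the enzyme, was 10.6 FPKM in the siRNA pool and 22.2 FPKM in sham embryos. POLR2J was 6.16 against 22.8 FPKM, 3.69-fold lower, with a log2 difference of -1.73 that was the lowest of the members with 1 FPKM added, though GTF2H4 was lower by the ratio of the values and with the total FPKM made equal, at -1.42 against -1.37. Its locus lies on chromosome 25 from 36712991 to 36717368. POLR2J and POLR2C thus stood nearly level in the sham pool and apart in the siRNA pool, although POLR2C, at -1.003, passed the 2-fold line only narrowly. POLR2I, a small subunit near the DNA entry, was 78.3 against 200 FPKM, and POLR2G, of the stalk that leaves the body of the enzyme, was 214 against 499 FPKM. POLR2D, the other stalk subunit, was 117 against 161 FPKM and stayed within 2-fold. POLR2M, which associates with the polymerase and is no core subunit, was 12.8 against 14.5 FPKM.

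Subunits shared by more than 1 polymerase had a median difference of -0.64 over 6 genes. POLR2F, common to the 3 enzymes, had the highest level of any member, at 1042 FPKM in the siRNA pool and 1242 FPKM in sham embryos. POLR2H, also common to the 3, was 72.6 against 112 FPKM. POLR2E was 15.4 against 33.4 FPKM and passed 2-fold, with a log2 difference of -1.07. POLR2K, the smallest of this group, was higher in the siRNA pool, at 6.73 against 4.67 FPKM. Subunits of the same enzymes thus spanned a wide range of levels per length, with 155-fold between POLR2F and POLR2K in the siRNA pool and 266-fold in the sham pool. POLR1C and POLR1D, a pair that anchors the assembly of polymerases I and III, were 26.1 against 41.7 FPKM and 62.1 against 123.2 FPKM, both lower in the siRNA pool.

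Subunits found only in RNA polymerase I differed widely in level. POLR1A, its largest subunit, was 0.416 FPKM in the siRNA pool and 1.44 FPKM in sham embryos, under the minimum mean. POLR1B, the second largest, was 1.22 against 1.35 FPKM. POLR1E, of the dimer that loosely resembles TFIIF, was 7.22 against 10.7 FPKM. CD3EAP, its partner in that dimer, was 21.5 against 21.8 FPKM, and TWISTNB, of the stalk, was 92.9 against 93.3 FPKM. All 3 POLR1 values were lower in the siRNA pool, but that of POLR1B was higher with the total FPKM made equal, at a log2 difference of 0.14.

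RNA polymerase III subunits went both ways. Of the 7 genes of its own described here with a mean of 1 FPKM or more, 3 were higher and 4 lower in the siRNA pool, none by 2-fold, with a median difference of -0.30. POLR3K, a small subunit that acts in termination, had the highest level of the group, at 102 FPKM in the siRNA pool and 157 FPKM in sham embryos. POLR3D and POLR3F, which belong to the subcomplexes for termination and initiation, were higher in the siRNA pool, at 16.5 against 10.6 FPKM and 6.12 against 3.62 FPKM. POLR3C, in the same initiation subcomplex as POLR3F, was 1.31 against 2.56 FPKM. The large subunits POLR3A and POLR3B were low, at 0.794 against 0.949 FPKM and 1.79 against 1.28 FPKM. POLR3E was 0.836 against 1.26 FPKM.

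POLR3G and POLR3GL are alternative subunits of RNA polymerase III, the first of which is known from pluripotent and fast-growing cells. POLR3G was 2.20 FPKM in the siRNA pool and 3.84 FPKM in sham embryos, and POLR3GL was 0.272 against 0.206 FPKM. POLR3G was therefore the higher of the pair in both pools, 8.10-fold above POLR3GL in the siRNA pool and 18.6-fold in the sham pool. The values of POLR3GL are too low for its difference to be read.

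**Figure D2:**
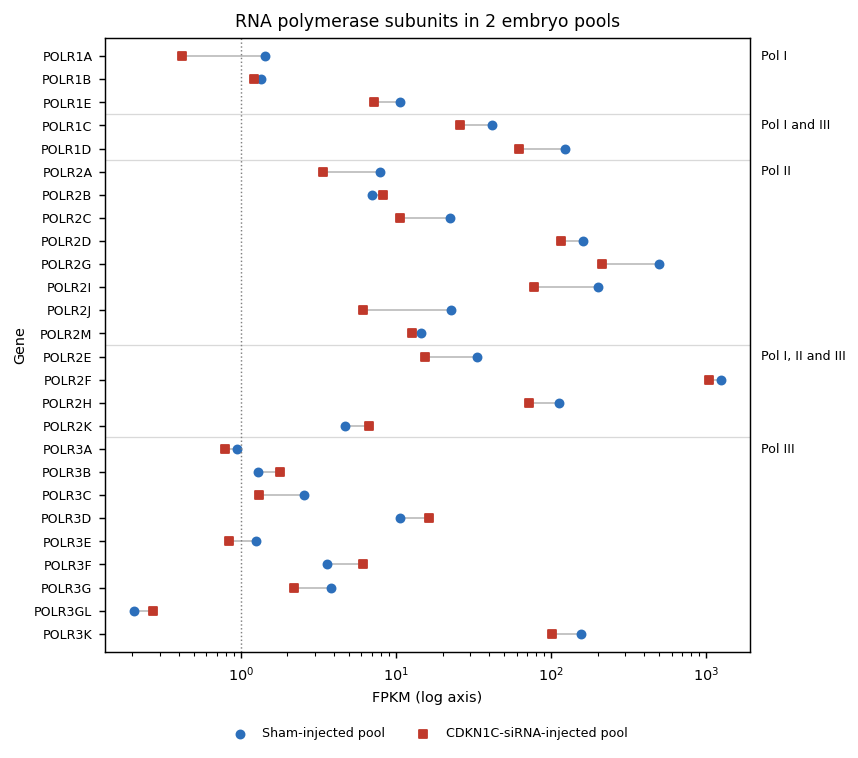
FPKM (horizontal, log axis) of 26 RNA polymerase subunit genes in the sham pool (blue circles) and in the siRNA pool (red squares), each a single library, grouped by the polymerases that hold them; the dotted line marks 1 FPKM. Most Pol II genes have their red square on the left, with POLR2B and POLR2K to the right, and POLR2F stands highest at 1042 and 1242 FPKM.

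Mediator subunits were mostly lower in the siRNA pool, as the median gene was. Of 28 subunit genes, 21 had a mean of 1 FPKM or more, 4 of these were lower by 2-fold or more, where 15.7% of all genes were, and none was 2-fold higher. With the total FPKM made equal, 0 were lower and 1 higher by 2-fold or more, against 7.32% and 12.0% of all genes. In the head module, which contacts the polymerase, 5 of 6 genes were lower, with a median difference of -0.35. MED18 was 9.18 FPKM in the siRNA pool and 21.1 FPKM in sham embryos, a log2 difference of -1.12. MED8, which holds MED18 in the head, was 21.0 against 34.5 FPKM. MED6 was 24.6 against 24.8 FPKM and MED22 22.1 against 24.8 FPKM, close to equal, and MED11 was 13.9 against 20.7 FPKM. MED17, the scaffold of the head, was higher in the siRNA pool, at 1.95 against 1.17 FPKM, and MED20, the partner of MED18, was 0.410 against 0.892 FPKM.

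In the middle module, MED21, a small subunit at its hinge, had the highest level of all Mediator genes, at 125 FPKM in the siRNA pool and 164 FPKM in sham embryos. MED7, which pairs with MED21, was 20.6 against 16.5 FPKM, and MED31 was 64.0 against 66.4 FPKM. MED10 and MED19, small subunits of the same module, were 22.5 against 35.9 FPKM and 14.4 against 22.2 FPKM. MED9 was the only middle gene past 2-fold as deposited, at 0.792 against 3.04 FPKM. With 5 FPKM added its log2 difference was -0.47, and with the total FPKM made equal it was -0.94, both within 2-fold. MED4, with which MED9 pairs in the yeast complex, was 27.1 against 16.2 FPKM, so these partners went opposite ways. MED1, the subunit that binds nuclear receptors, was 2.77 against 3.89 FPKM, and MED26, which links Mediator to elongation factors, was 3.79 against 2.83 FPKM. The 9 genes of the module had a median difference of -0.38.

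The 4 subunits MED27 to MED30 lie where head and tail meet in animals. MED27 was 15.9 FPKM in the siRNA pool and 41.5 FPKM in sham embryos, and MED29 was 46.8 against 99.9 FPKM, both lower by 2-fold or more. MED28 was 14.9 against 15.1 FPKM and MED30 was 34.7 against 25.1 FPKM. Tail genes, through which many activators act, were low in both pools. MED15 was 4.39 against 5.63 FPKM over 2 loci on chromosome 17, of which 1 was 0.922 FPKM in the siRNA pool and listed at 0 in the sham pool. MED24 was 0.921 against 1.71 FPKM, MED23 1.27 against 0.447 FPKM, and MED25 was listed at 0 in both pools.

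None of the 4 MED genes of the kinase module, which docks on Mediator and keeps the polymerase from it, reached a mean of 1 FPKM. MED12 was 0.510 FPKM in the siRNA pool and 1.22 FPKM in sham embryos, MED13 0.867 against 0.373 FPKM and MED13L 0.731 against 0.679 FPKM. MED12L was 0.161 against 0.0609 FPKM. The kinase and cyclin of the module were at higher levels, with the kinase gene CDK8 at 5.57 against 3.04 FPKM and cyclin C, CCNC, at 12.1 against 4.50 FPKM. CCNC was higher by 2-fold or more in the siRNA pool, with a log2 difference of 1.25. The other kinase gene, CDK19, was below 0.03 FPKM in both pools.

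**Figure D3:**
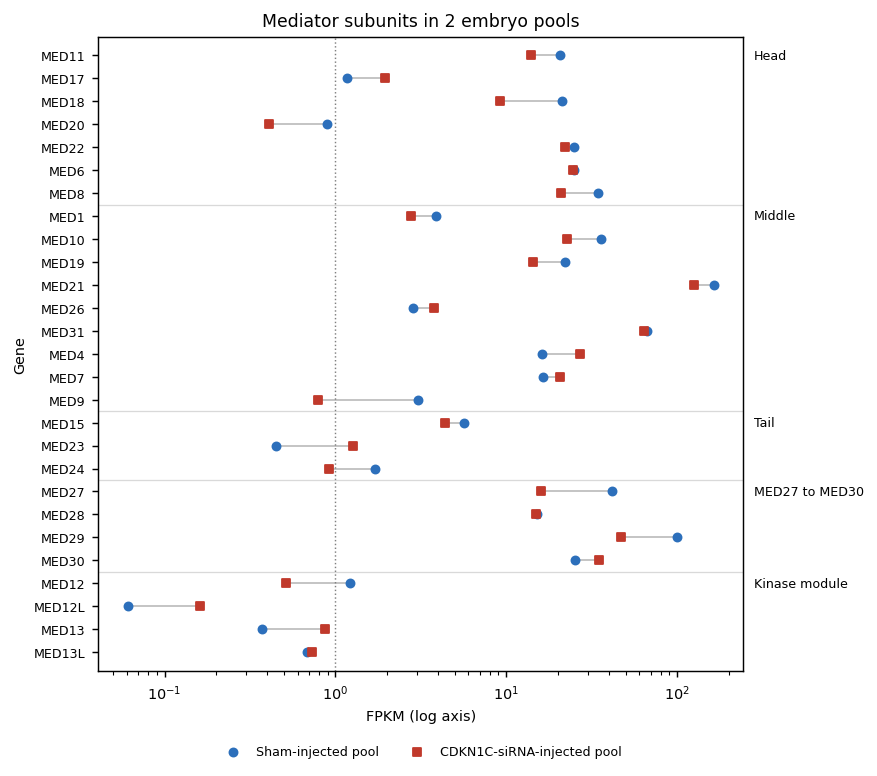
FPKM (horizontal, log axis) of 27 Mediator genes above 0 in the sham pool (blue circles) and in the siRNA pool (red squares), each a single library, by module; MED25, at 0 in both pools, is not drawn and the dotted line marks 1 FPKM. Head and middle genes lie mostly between 10 and 100 FPKM, and the 4 MED genes of the kinase module lie around or below the dotted line.

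Among the general factors, 1 subunit of a complex was often far from its partner. GTF2E1 and GTF2E2 encode the alpha and beta subunits of TFIIE. GTF2E1, on chromosome 1 from 66344737 to 66378171, was 4.51 FPKM in the siRNA pool and 1.09 FPKM in sham embryos, 4.14-fold higher, while GTF2E2 was 45.4 against 49.3 FPKM. In TFIIA, GTF2A1, of the large subunit, was 3.30 against 1.07 FPKM and passed 2-fold, with a log2 difference of 1.05, and GTF2A2, of the small subunit, was 157 against 95.8 FPKM. With 5 FPKM added, the log2 differences of GTF2E1 and GTF2A1 were 0.64 and 0.45, within 2-fold. GTF2A1L, a relative of GTF2A1 known from germ cells, was 35.0 against 30.3 FPKM and so stood 10.6-fold above GTF2A1 in the siRNA pool and 28.2-fold in the sham pool. TFIIB, GTF2B, was 11.2 against 12.7 FPKM. In TFIIF, GTF2F1 was 21.1 against 30.8 FPKM and GTF2F2 5.03 against 3.83 FPKM.

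Of the factor complexes from TFIIA to TFIIH, TFIIH had the widest spread. GTF2H4, the subunit that holds the DNA-opening translocase XPB, was 0.879 FPKM in the siRNA pool and 4.99 FPKM in sham embryos, 5.68-fold lower, and lies on chromosome 23 from 27061073 to 27067665. GTF2H3, which pairs with GTF2H2 in the core, was 1.88 against 0.418 FPKM, 4.50-fold higher by the ratio of the values and 1.02 on the log2 scale with 1 FPKM added. With 5 FPKM added, GTF2H4 and GTF2H3 were at -0.77 and 0.34, within 2-fold. GTF2H1, which contacts TFIIE, was 7.42 against 3.88 FPKM. GTF2H2 was 5.39 against 5.52 FPKM, and GTF2H5, the smallest subunit, 91.0 against 90.9 FPKM. The 5 core genes therefore had a median difference of 0.0015 with 1 gene past 2-fold each way. Of the enzymes of TFIIH, the translocase gene ERCC3 was 4.99 against 3.19 FPKM and the kinase gene CDK7 28.6 against 19.2 FPKM, its cyclin CCNH was 2.45 against 3.08 FPKM, and ERCC2 was 0.128 against 0.0661 FPKM.

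GTF2I and GTF2IRD1, of the TFII-I family of DNA-binding regulators, were 11.1 FPKM in the siRNA pool and 10.6 FPKM in sham embryos, and 6.35 against 8.44 FPKM. GTF2IRD2 was 0.0438 against 0.189 FPKM. The family's 3 genes lie near each other on chromosome 25.

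The TAFs of TFIID had a median difference of 0.40 over 9 genes, of which 5 were higher and 4 lower in the siRNA pool. That median was 0.00044 without the low-value filter, 0.18 over genes with a mean of 5 FPKM or more, 0.14 after a loess fit on locus length and 0.17 after one on neighbouring loci. TAF10, a histone-fold subunit also found in the SAGA coactivator, had the highest level, at 202 FPKM in the siRNA pool and 443 FPKM in sham embryos, and was the only TFIID gene past 2-fold. With the total FPKM made equal TAF10 was within 2-fold, at -0.73, and TAF13 and TAF7 were higher by 2-fold or more, at 1.37 and 1.09. TAF13, another histone-fold subunit, was 26.98 against 13.0 FPKM, which lies just inside the 2-fold line after 1 FPKM is added. Its histone-fold partner TAF11 was 22.0 against 25.1 FPKM. TAF9 was 66.9 against 49.7 FPKM, while TAF6, with which it pairs, was 1.014 against 0.815 FPKM. TAF7, which binds TAF1, was 8.72 against 4.81 FPKM, TAF4 3.38 against 2.31 FPKM and TAF12, its partner, 8.57 against 9.03 FPKM. TAF2, which binds the initiator of the promoter, was 1.71 against 0.921 FPKM, and TAF3, which reads a histone mark of active promoters, 1.94 against 2.91 FPKM.

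TAF1, the scaffold of TFIID, was low in both pools, at 0.256 FPKM in the siRNA pool and 0.224 FPKM in sham embryos, and so was TAF8, at 0.2498 against 0.282 FPKM. TAF5, another scaffold subunit, was 0.895 against 1.005 FPKM, while its SAGA counterpart TAF5L was 17.9 against 14.5 FPKM. TAF4B, a relative of TAF4 known from the ovary, was 0.452 against 0.920 FPKM, and TAF4 stood 7.49-fold above it in the siRNA pool and 2.51-fold in the sham pool. TAF7L, known from testis, was listed at 0 in both pools. Of 15 TFIID genes in the files, 6 were thus below the minimum mean, counting TAF6 and TAF7L.

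TAF1B and TAF15 were the 2 TAFs higher by 2-fold or more in the siRNA pool. TAF1B belongs to SL1, the factor that recruits RNA polymerase I, and was 26.5 FPKM in the siRNA pool and 9.14 FPKM in sham embryos, a log2 difference of 1.44. It lies on chromosome 11 from 90324799 to 90380196. TAF1D, of the same factor, was 27.2 against 16.0 FPKM, TAF1A 3.92 against 3.003 FPKM and TAF1C 3.93 against 6.01 FPKM. The 4 SL1 genes had a median difference of 0.51, and 0.31 and 0.14 after the loess fits on locus length and on neighbouring loci. That of POLR1B and POLR1E was -0.29, and -0.26 and -0.40 after these fits. Of the polymerase I subunits with other symbols, ZNRD1 was at -0.86, CD3EAP at -0.016 and TWISTNB at -0.0049. TAF15, an RNA-binding protein of the FET family, was 10.7 against 2.54 FPKM, 4.23-fold higher, with a log2 difference of 1.73 that was the highest of the members with 1 FPKM added. Its locus is on chromosome 19 from 13964232 to 13993828.

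**Figure D4:**
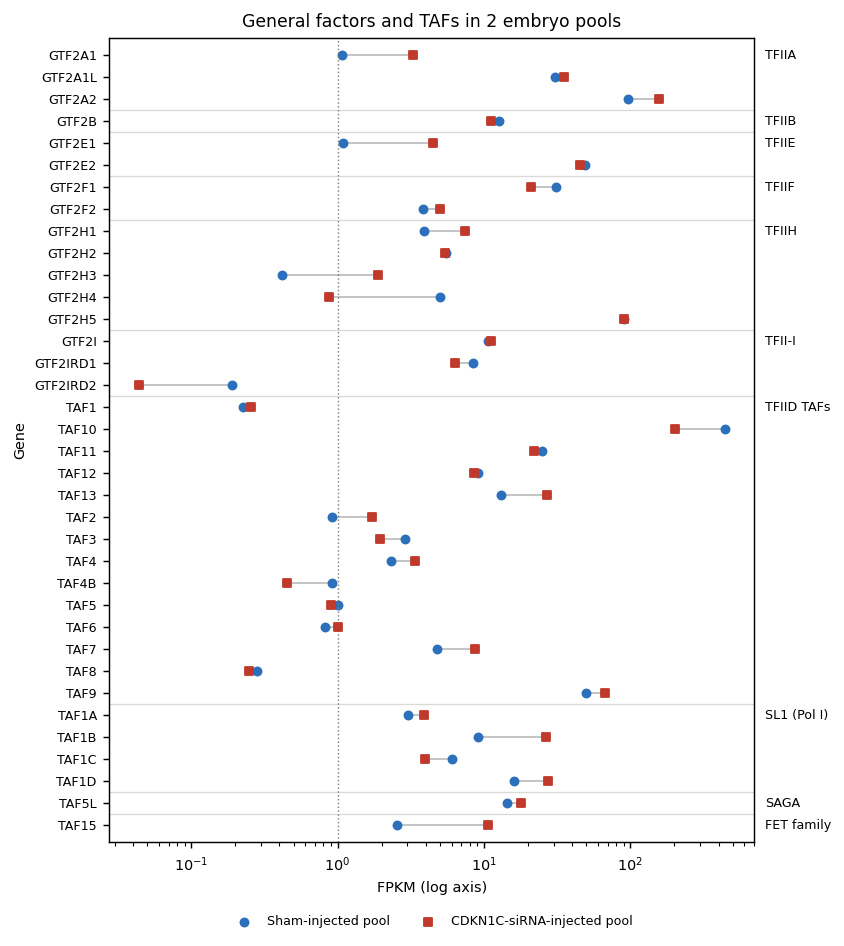
FPKM (horizontal, log axis) of 36 general factor, TFII-I and TAF genes above 0 in the sham pool (blue circles) and in the siRNA pool (red squares), each a single library; TAF7L, at 0 in both pools, is not drawn and the dotted line marks 1 FPKM. GTF2A1, GTF2E1, GTF2H3, TAF1B and TAF15 lie clearly to the right in the siRNA pool, and GTF2H4 and TAF10 to the left.

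Partner genes outside the chosen symbols went both ways. Among all genes, 4.92% were higher and 15.7% lower by 2-fold or more. Of 8 RNA polymerase III factors and further subunits with a mean of 1 FPKM or more, 1 was lower by 2-fold or more. This was BRF2, at 5.24 FPKM in the siRNA pool and 13.1 FPKM in sham embryos, while BDP1 was 1.47 against 0.608 FPKM. Of 13 genes of polymerase II pausing and elongation, 1 was higher by 2-fold or more, the cyclin gene CCNT2, at 7.65 against 3.20 FPKM, and 1 was lower by 2-fold or more, RDBP, of the pausing factor NELF, at 32.1 against 86.0 FPKM. Of 5 polymerase I factors and further subunits none passed 2-fold with 1 FPKM added, though ZNRD1 and RRN3 did by the ratio of the values. ZNRD1 was lowest at 2.74 against 5.77 FPKM. RRN3, which readies polymerase I to start, was highest at 1.71 against 0.810 FPKM. POLRMT, the separate polymerase of mitochondria, was 4.67 against 17.4 FPKM, with a log2 difference of -1.70, whereas its factors TFAM and TFB2M were 3.45 against 2.37 FPKM and 8.51 against 5.99 FPKM. Among 4 assembly factors of polymerases none passed 2-fold with 1 FPKM added. RPAP3 was highest at 5.31 against 2.40 FPKM, 2.22-fold by the ratio of the values, and RPAP1 lowest at 4.14 against 4.92 FPKM. TBPL1, a relative of TBP, was 8.38 against 4.90 FPKM, BTAF1, which removes TBP from DNA, 1.35 against 1.16 FPKM, and TBPL2 was listed at 0 in both pools.

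The location of the genes moved with the differences. The 12 members lower by 2-fold or more in the siRNA pool had a median of 61 other listed loci within 1 Mb, the 5 members higher by 2-fold or more had 24 and the other 57 had 23. Among all genes these medians were 52, 18 and 24. POLR2A, with 115 such neighbours, and GTF2H4, with 116, lay in the densest regions of the members past 2-fold, and GTF2A1, with 4, in the sparsest. Across the 74 members the Spearman rho between the difference and the number of neighbours was -0.46, and across all genes -0.42, as a description in which every value comes from the same pair of libraries. Locus length moved with the differences as well, with medians of 5472.5 bases for the lower and 33435 bases for the higher members, and 9178 and 27410 bases among all genes. After a loess fit on the number of neighbours, chosen after the data were seen, 7 members were higher by 2-fold or more and 5 lower by 2-fold or more, against 4.50% and 11.2% of all genes, and the POLR2 median was -0.59.

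**Figure D5:**
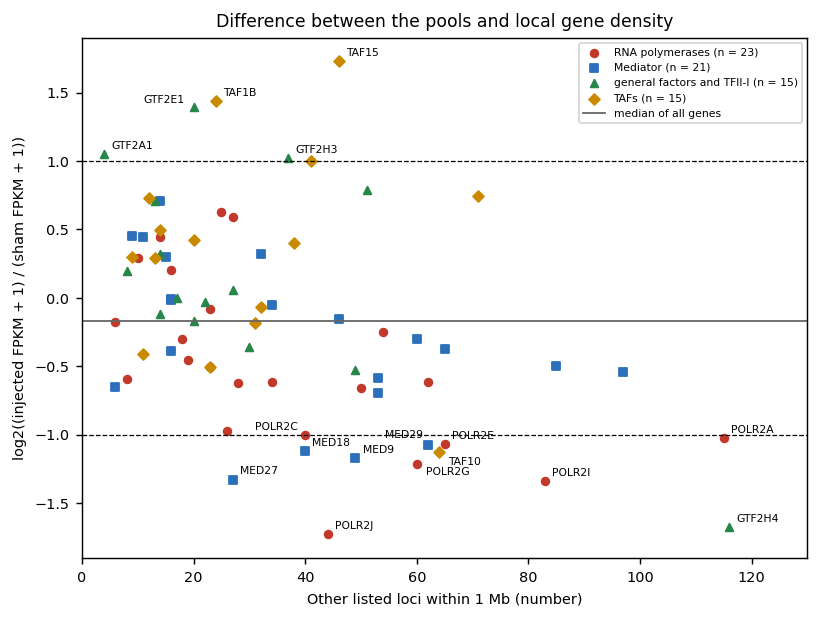
Difference between the pools, log2((injected FPKM + 1) / (sham FPKM + 1)), against the number of other listed loci within 1 Mb for the 74 members with a mean of 1 FPKM or more, 1 point per gene. Dashed lines mark 2-fold, the grey line is the median of all genes, and genes past 2-fold are named; those lower by 2-fold or more have a median of 61 neighbours and those higher 24.

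Of the 91 members, 15 share their listed locus with other symbols, where reads of overlapping genes could be split between them. POLR2B shares its locus with IGFBP7, which was 255 FPKM in the siRNA pool and 6.89 FPKM in sham embryos, while POLR2B was within 2-fold. TAF10 shares its locus with the kinase gene ILK, at 3.15 against 11.5 FPKM, so that the member and its neighbour were lower together. TAF6 and its neighbour AP4M1 went opposite ways, the latter at 3.62 against 9.19 FPKM. TAF5 shares its locus with USMG5, at 3089 against 3004 FPKM, and itself was near 1 FPKM in both pools. The part of shared loci in these differences was not tested.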

How the data were processed

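Total RNA of each embryo pool was amplified (MessageAmp II aRNA), and Illumina mRNA-Seq libraries were sequenced by the authors on a HiSeq. The authors mapped reads to bosTau7 with TopHat and estimated abundance with Cufflinks 2.0.2, and the deposited values are FPKM, upper-quartile normalized and corrected for sequence bias. The gene annotation is not given in the sources used here. Amplification and these corrections can change levels between genes, and no read counts were given, so the depth per sample and the precision of a value are unknown.

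Each table holds 22220 loci, of which 615 carry no symbol and were left out. Loci with the same symbol were summed, and 1 symbol that matched the choice of members is not reported here. Differences were log2 ratios after adding 1 FPKM, over genes averaging 1 FPKM or more, and genes past 2-fold were counted. No test was possible with 1 library per group, and no differential test of the authors was repeated. The calculation was tested on simulated data. A planned description by protein length was replaced by locus length, since no protein table was used here. The members, complexes, partner and marker lists were chosen with earlier results of these data known. Values are given for members past 2-fold, the highest and lowest of each complex, paralog pairs and other members by role, and for partner genes past 2-fold or at the ends of their list. Alternatives were a pseudocount of 0.1 or 5 FPKM, no low-value filter or one at 5 FPKM, centring on the median difference, equal total FPKM, the highest locus in place of the sum, a fold of 4, and loess fits (span 0.3) on locus length and on loci within 1 Mb. The tools were matplotlib 3.10.9, statsmodels 0.14.6, NumPy 2.4.6 and pandas 2.3.3 in Python 3.11.15.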

Additional observations from a re-analysis of the deposited data

How the results depend on the processing

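The count of members higher in the siRNA pool by 2-fold or more, 5 in the report, was 2 with 5 FPKM added, 2 over genes averaging 5 FPKM or more, 11 with equal totals and 0 at a fold of 4, where 1.49%, 4.96%, 12.0% and 0.413% of all genes were. The count of lower members, 12 in the report, was 6 with 5 FPKM added, 6 after centring on the median of all genes, 2 with equal totals, 5 after the loess fit on locus length, 5 after that on neighbouring loci and 0 at a fold of 4, where 7.49%, 11.05%, 7.32%, 13.1%, 11.2% and 1.05% of all genes were. The median difference of the members was -0.17 with 0.1 FPKM added, -0.12 with 5 FPKM added, -0.12 without the low-value filter, -0.17 at 5 FPKM or more, -0.081 after the fit on locus length and -0.17 after that on neighbours, and it turned to 0.0033 after centring and to 0.20 with equal totals. Taking the highest locus of a symbol in place of the sum could not move the 17 named calls, since none of these genes was summed over loci.

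Medians of single complexes turned sign as follows. At 5 FPKM or more, the general factors came to -0.013 and TFIIE to -0.12. After centring, TFIIF came to 0.062 and the TFII-I family to 0.013. With equal totals, Mediator came to 0.0046, its head to 0.030 and its middle to 0.0046. TFIIB came to 0.20, TFIIF to 0.25 and the TFII-I family to 0.20 under that scaling. After the fit on neighbouring loci, the general factors and the TFIIH core came to -0.16, the Mediator tail to 0.070 and TAF5L to -0.054. The cause of these changes was not tested. Of the 17 members past 2-fold, 7 stayed past it with equal totals and 7 after the fit on neighbouring loci. None changed direction under an alternative that kept it, and 12 of the 17 were kept at 5 FPKM or more. A changed pseudocount, filter or fold cannot turn a sign, and these members were picked as past 2-fold, so this shows little. No paired analysis was possible because each group is 1 library, and the depth that limits low values is unknown.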
